A study of Homo sapiens with 3 samples.

Results

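Cluster 3 of the deposited annotation held 1450 of 19237 annotated CAMA-1 cells. Its members are the cells that carry the cluster number 3 at the clustering resolution the authors deposited, and no measured value was used here to choose them. Of these cells 1087 were Sensitive (coculture), 267 Sensitive (monoculture), 91 Resistant (coculture) and 5 Resistant (monoculture), so most of the cluster was sensitive cells grown beside resistant cells. The CAMA-1 line comes from a luminal breast cancer and expresses the estrogen receptor. Sensitive cells carried the yellow fluorescent transgene mVenus. Ribociclib-resistant cells, derived from the same line, carried the red fluorescent transgene mCherry. Spheroids were seeded with 100% sensitive cells, 50% sensitive and 50% resistant cells, or 0% sensitive cells, and every spheroid received 1 µM ribociclib with its solvent, DMSO, and was harvested after 11 days, with cells frozen viable before capture. Spheroids without ribociclib were not analysed here, and all groups derive from 1 cell line. There was 1 single-cell library per condition, so no test across samples was possible, and cells of 1 library are not replicates.

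Ribociclib blocks CDK4 and CDK6, the kinases that phosphorylate RB with D-type cyclins and so let E2F switch on the genes of S phase. In luminal breast cancer cells the estrogen receptor drives cyclin D1 and a set of secreted and signalling products, among them the trefoil factors TFF1 and TFF3 and the progesterone receptor. The study asked how resistant cells alter sensitive cells that share a spheroid and a drug with them. Cluster 3 answers to the question of which RNA profile most of those sensitive cells had, and how it differed from that of the few monocultured sensitive cells with the same cluster number.

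Cluster 3 was the commonest cluster among cocultured sensitive cells and an uncommon one in every other population. It held 52.8% of the 2059 Sensitive (coculture) cells (exact 95% binomial interval 50.6 to 55.0%) and 8.02% of the 3329 Sensitive (monoculture) cells (7.1 to 9.0%). Of resistant cells it held few, with 1.45% of the 6292 in coculture (1.17 to 1.77%) and 5 of the 7557 in monoculture. Most other cocultured sensitive cells were in cluster 7 (617 cells), and monocultured sensitive cells were mostly in cluster 4 (58.4%) and cluster 8 (20.5%). Intervals here and throughout cover counting error only. Cluster membership was set from the same RNA that is described next, so differences between cluster 3 and other clusters are descriptions of what the clustering separated.

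**Figure D1:**
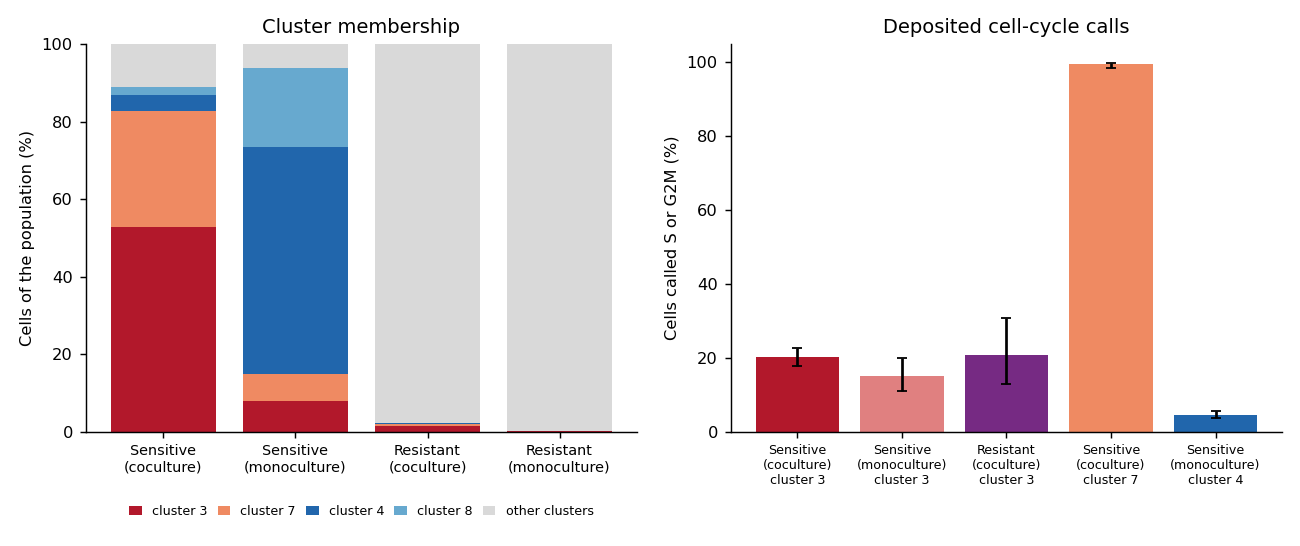
Left, percent of each annotated population (bars) in clusters 3, 7, 4, 8 and all other clusters. Cluster 3 takes 52.8% of cocultured and 8.02% of monocultured sensitive cells. Right, percent of cells that the deposited annotation calls S or G2M in 5 groups, with exact 95% binomial intervals, from 4.52% in monocultured sensitive cells of cluster 4 to 99.5% in cocultured sensitive cells of cluster 7.

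Depth was similar within the cluster. The median cell had 33914 UMIs (unique molecular identifiers, which count captured RNA molecules) in Sensitive (coculture), 31672 in Sensitive (monoculture) and 36395 in Resistant (coculture), and the median mitochondrial share was 17.3%, 19.0% and 16.6%. Summed over cells these groups held 36996935, 8415750 and 3329332 UMIs. Levels are given as CPM, the UMIs of a gene scaled by the summed UMIs of its group. No barcode of cluster 3 was shared between libraries, whereas 7 to 17 annotated barcodes were shared between pairs of libraries in the whole series. All cocultured sensitive members carried at least 1 mVenus UMI, while 86 of the 267 monocultured members (32.2%) carried none. Lineage was read from the transgene in coculture and from the library in monoculture. The luminal identity of the line was plain in the cluster. All 7 luminal markers, KRT18 and KRT19 among them, were at 10 CPM or more in each of the 3 groups. Of 6 basal markers only the myosin kinase MYLK and of 6 fibroblast markers only the collagen COL3A1 reached 10 CPM in the sensitive groups, and no immune or endothelial marker did.

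Most members of cluster 3 were called G1. The deposited phase was S or G2M in 219 of 1087 Sensitive (coculture) cells, 20.1% (17.8 to 22.7%), and in 40 of 267 Sensitive (monoculture) cells, 15.0% (10.9 to 19.8%). These intervals overlap. S calls were 12.3% (10.4 to 14.4%) and 5.24% (2.9 to 8.64%) of the same cells, intervals that do not overlap, and G2M calls 7.82% (6.29 to 9.58%) and 9.74% (6.46 to 13.9%), which do. After every cell was thinned to 5000 UMIs and called again, S or G2M was found in 30.1% of cocultured and 23.2% of monocultured members, again with intervals that overlap. S calls were then 24.1% (21.6 to 26.8%) and 17.2% (12.9 to 22.3%), which also overlap. Called again without thinning, S was found in 22.7% (20.3 to 25.3%) and 11.2% (7.71 to 15.7%) and G2M in 3.31% (2.33 to 4.56%) and 7.87% (4.93 to 11.8%), intervals that overlap in neither phase. The cluster thus lay between cluster 7, where 99.5% of cocultured sensitive cells were called S or G2M, and cluster 4, where 4.52% of monocultured sensitive cells were. Calls rest on RNA scores and do not measure division.

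Most genes were within 2-fold between cocultured and monocultured sensitive cells of cluster 3. Both groups were placed in the cluster by their RNA, so differences between them, small or large, in part describe that choice. The monocultured members are only 8.02% of monocultured sensitive cells, and the comparison does not cover the rest. Among the 6682 genes that averaged 10 CPM or more over both groups, 26 were past 2-fold higher in coculture (0.389%) and 26 past 2-fold lower (0.389%). The median log2 ratio, taken throughout after adding 1 CPM, was -0.07. More genes were therefore lower than higher in coculture, and counts of lower genes in the lists below stand beside that. Scaling with TMM factors gave 35 higher and 19 lower. Over genes that averaged 50 CPM or more in the pair, the root mean square log2 difference was 0.311. The like value was 0.318 between monocultured members and monocultured cells of cluster 4. Between cocultured sensitive members and resistant cells of their library outside the cluster it was 0.331. Among genes that averaged 50 CPM or more, those past 2-fold higher included the trefoil factors TFF3 and TFF1, the histone gene HIST1H4C and MGP, and those past 2-fold lower included ANKRD37, FABP7, ID3, ID1 and PTTG1.

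**Figure D2:**
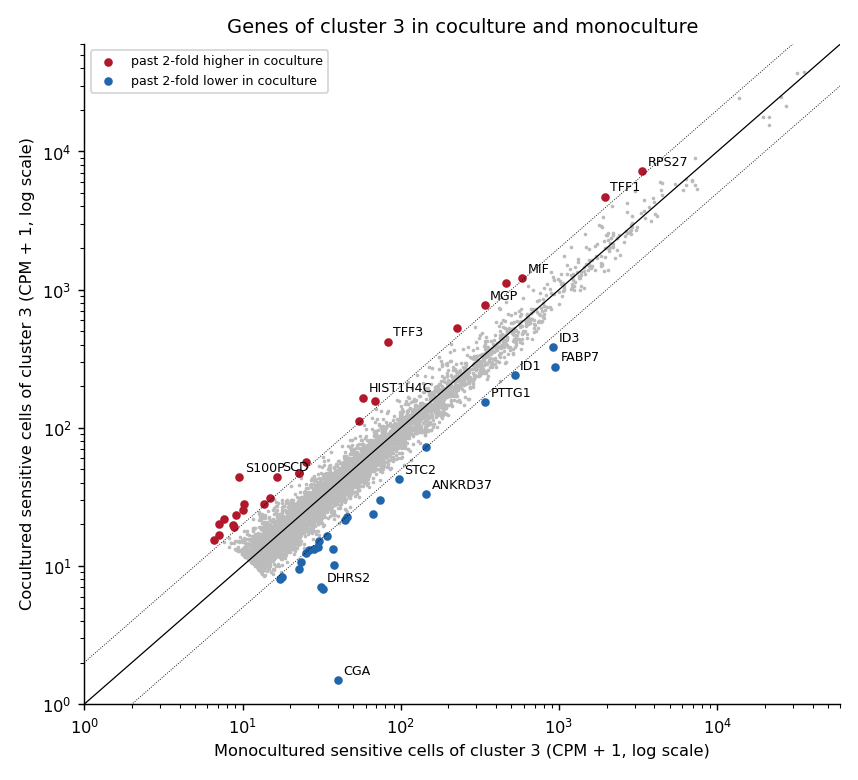
Level of each of 6682 genes (points, CPM + 1, both axes on a log scale) in monocultured (x) and cocultured (y) sensitive cells of cluster 3. The solid line marks equal levels and the dotted lines a 2-fold ratio. The 26 red genes, TFF3 and TFF1 among them, lie above the upper dotted line and the 26 blue genes, ANKRD37 and FABP7 among them, below the lower one, and CGA lies far below because of 1 monocultured cell.

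The trefoil factors are small secreted peptides whose genes lie in 1 cluster on chromosome 21 and are textbook targets of the estrogen receptor. TFF3 (chr21:43731777-43735519, minus strand, GRCh37) stood at 418 CPM in cocultured and 82.1 CPM in monocultured members, with exact Poisson intervals of 411 to 424 and 76.1 to 88.5 CPM and a log2 ratio of 2.33. TFF1 (chr21:43782391-43786644, minus strand) stood at 4693 CPM (4671 to 4716) and 1949 CPM (1920 to 1979), a log2 ratio of 1.27. The median cell had 169 CPM of TFF3 in coculture and 40.7 CPM in monoculture, so the higher sum did not come from a few cells. The progesterone receptor gene PGR was at 46.4 and 21.9 CPM (log2 ratio 1.05), and AGR2, a secretory pathway isomerase, at 350 and 204 CPM (0.78).

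The wider list of estrogen-induced genes was near level. Of 29 members at 10 CPM or more, 14 were higher and 15 lower, with 3 past 2-fold higher (TFF3, TFF1 and PGR) and 1 past 2-fold lower, STC2, the secreted glycoprotein stanniocalcin 2. The list's median log2 ratio was -0.02, beside -0.07 over all genes, and changed sign among the alternatives (-0.09 to 0.06). MYC, the growth-promoting transcription factor, was at 69.0 and 110 CPM (-0.66), and GREB1, an estrogen receptor cofactor, at 67.8 and 55.4 CPM (0.29). The receptor itself, ESR1, was at 21.1 CPM (19.7 to 22.6) in coculture and 19.6 CPM (16.7 to 22.8) in monoculture, which overlap. Among enzymes that make or convert estradiol, HSD17B1 was at 12.6 and 13.2 CPM with overlapping intervals, HSD17B8 at 32.7 and 27.5 CPM (0.24), and CYP19A1, aromatase, had 0 UMIs in either group, which allows up to 0.0811 and 0.356 CPM. Of 11 steroid enzymes tested none was past 2-fold.

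The drug's targets and their partners differed little. CCND1, cyclin D1, was at 1645 CPM in coculture and 1619 CPM in monoculture, CDK4 at 114 and 126 CPM, and CDK6 had 3 and 1 UMIs in all. Of 11 cyclin, CDK, RB and E2F genes tested, 6 were higher and 5 lower and none was past 2-fold, with a median of 0.00. RB1 was at 21.1 and 15.7 CPM (0.41) and E2F1, which drives S phase genes, at 19.8 and 14.3 CPM (0.45). Among the alternatives these 2 ratios ranged from 0.0042 to 0.58 and from 0.17 to 0.76. Of 5 CDK inhibitor and pocket protein genes 4 were lower in coculture (median -0.27), with CDKN2A, which encodes the CDK4 inhibitor p16, at 50.8 and 81.4 CPM (-0.67) and CDKN1A, which encodes p21, at 12.5 and 18.4 CPM (-0.52).

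Cell cycle genes split within the cluster. Of 23 S phase genes tested 11 were higher and 12 lower in coculture (median -0.02). CDC6 (18.7 and 7.72 CPM, log2 ratio 1.18) and MCM5 (27.2 and 12.6 CPM, 1.05), a loader and a subunit of the replicative helicase, were past 2-fold higher, and TYMS, thymidylate synthase, past 2-fold lower (14.1 and 29.5 CPM, -1.01). None of these stayed past 2-fold under every alternative: with 10 CPM added CDC6 gave 0.70, MCM5 0.72 and TYMS -0.71, and in G1 cells alone 0.72, 0.90 and -0.64. Of 35 G2M genes 22 were higher and 13 lower (median 0.10) and none was past 2-fold, and the median changed sign among the alternatives (-0.06 to 0.25). PTTG1, securin, which holds separase in check until anaphase, went against that list. It was at 152 CPM in coculture (148 to 156) and 341 CPM in monoculture (329 to 354), a log2 ratio of -1.17. PCLAF, a PCNA-binding factor, was at 71.1 and 144 CPM (-1.01), or -0.93 with TMM factors. In cells called G1 alone PTTG1 was still lower in coculture, at 130 against 247 CPM, and PCLAF at 61.0 against 125 CPM. Monocultured sensitive cells of cluster 4 called G1 had only 25.7 CPM of PTTG1 and 16.1 CPM of PCLAF. The lower levels in coculture thus hold against monocultured members of cluster 3 and not against those of cluster 4. HIST1H4C, a replication-dependent histone H4 gene, was at 164 and 56.9 CPM (1.51), and in G1 cells alone at 116 and 48.0 CPM. HIST1H2BJ, another histone gene, was at 11.3 and 24.2 CPM (-1.03), a ratio that ranged from -1.30 to -0.57 over the alternatives.

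The ID proteins are inhibitors of basic helix-loop-helix transcription factors and are induced by BMP signalling through SMADs. All 6 tested members of the list of ID and BMP-SMAD feedback genes were lower in coculture, 3 of them past 2-fold, with a median of -0.93 (-1.27 to -0.58 among the alternatives). ID3 was at 381 CPM in coculture (374 to 387) and 915 CPM in monoculture (895 to 936), a log2 ratio of -1.26. ID1 was at 239 and 523 CPM (-1.13), and BAMBI, a decoy receptor of the pathway, at 12.2 and 36.4 CPM (-1.50). ID2 stood at 39.3 and 65.7 CPM (-0.73). ID3 was detected in 97.6% of cocultured and 99.3% of monocultured members, so the difference was one of level.

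Lipid synthesis genes stood higher. Of 7 fatty acid synthesis genes tested 6 were higher in coculture, 1 past 2-fold, and the median was 0.69 (0.49 to 0.86 among the alternatives). SCD, stearoyl-CoA desaturase, was at 43.2 and 15.4 CPM (1.43), FASN, fatty acid synthase, at 104 and 57.4 CPM (0.85), ELOVL5, a chain elongase, at 109 and 67.4 CPM (0.69) and SREBF1, their transcription factor, at 25.3 and 14.7 CPM (0.74). Of 20 cholesterol synthesis genes 15 were higher and none was past 2-fold, with a median of 0.17 (0.04 to 0.25). INSIG1, which retains SREBP proteins, was at 17.0 and 9.62 CPM (0.76).

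Stress and immune lists differed by smaller amounts, some of them close to the median of -0.07 over all genes. Of 12 heat shock genes 9 were lower in coculture (median -0.33) and none was past 2-fold. The chaperone HSPA1A was at 219 and 421 CPM (-0.94) and HSP90AA1 at 1775 and 2424 CPM (-0.45). In monocultured members this list stood higher than in monocultured cells of cluster 4 (median 0.57). All 7 tested MHC class I genes were lower (median -0.21), with B2M, the light chain, at 363 and 488 CPM (-0.43). The peptide transporter TAP1, at 7.38 and 16.8 CPM (-1.08), was the 1 gene past 2-fold, with -1.62 to -0.62 among the alternatives. Interferon-stimulated genes had 6 of 7 higher (median 0.45), with IFITM2 at 362 and 215 CPM (0.75) and IFI6 at 27.3 and 9.15 CPM (1.48), but BST2, tetherin, at 478 and 624 CPM (-0.38). In IFI6 1 cell gave 16.9% of the monocultured UMIs, and the ratio of IFI6 ranged from 0.96 to 2.15 among the alternatives. Of 16 ATF4 amino acid stress genes 11 were lower (median -0.13), 2 past 2-fold, STC2 and PHGDH, the first enzyme of serine synthesis, which was at 12.7 and 29.0 CPM (-1.13). The ratio of PHGDH ranged from -1.35 to -0.78 among the alternatives. CEBPB, a stress-responsive transcription factor, was at 19.6 and 39.4 CPM (-0.98).

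**Figure D3:**
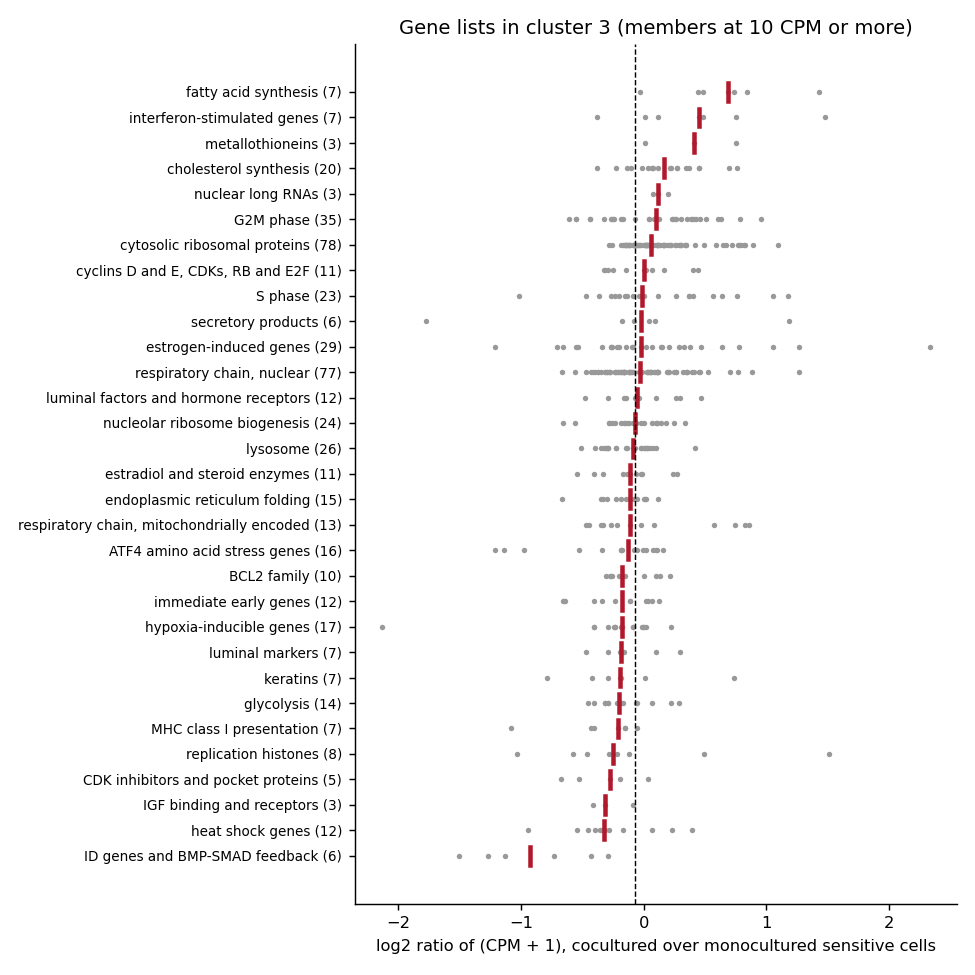
Log2 ratio of CPM + 1, cocultured over monocultured sensitive cells of cluster 3, for each gene at 10 CPM or more (grey points) of 31 lists, with the list median (red bar) and the number of genes in brackets. The dashed line is the median of all 6682 genes, -0.07. Fatty acid synthesis has the highest median (0.69) and ID genes and BMP-SMAD feedback the lowest (-0.93), and single genes such as TFF3 and ANKRD37 lie far from their lists.

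ANKRD37, an ankyrin repeat protein gene that HIF-1 induces in hypoxia, was the most reduced gene with a mean of 50 CPM or more. It was at 32.2 CPM in coculture (30.4 to 34.1) and 144 CPM in monoculture (136 to 153), a log2 ratio of -2.13. Of 17 hypoxia-inducible genes tested 14 were lower, and ANKRD37 was the 1 gene past 2-fold. Their median was -0.18 (-0.29 to -0.10), beside -0.07 over all genes. VEGFA, which drives vessel growth, was at 20.2 and 23.9 CPM (-0.23) and LDHA, lactate dehydrogenase A, at 305 and 404 CPM (-0.40). STC2 was at 41.4 CPM (39.3 to 43.5) and 96.7 CPM (90.2 to 104), a log2 ratio of -1.21. The promoters of ANKRD37 and STC2 are shown because both hold the core of the hypoxia response element, ACGTG or GCGTG on either strand, in the window from 250 bases before to 50 after the RefSeq start (GRCh38.p14). Capitals mark the matches, which overlap in part, so that 3 matches form 2 runs in each promoter. The first is chr4:185396591-185396890, plus strand, and the second chr5:173328365-173328664, minus strand.
ANKRD37: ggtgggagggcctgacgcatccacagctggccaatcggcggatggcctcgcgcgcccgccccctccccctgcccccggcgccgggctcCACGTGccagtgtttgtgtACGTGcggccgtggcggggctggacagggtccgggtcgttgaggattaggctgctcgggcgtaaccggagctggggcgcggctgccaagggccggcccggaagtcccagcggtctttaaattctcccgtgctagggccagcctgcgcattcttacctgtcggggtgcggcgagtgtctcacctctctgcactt
STC2: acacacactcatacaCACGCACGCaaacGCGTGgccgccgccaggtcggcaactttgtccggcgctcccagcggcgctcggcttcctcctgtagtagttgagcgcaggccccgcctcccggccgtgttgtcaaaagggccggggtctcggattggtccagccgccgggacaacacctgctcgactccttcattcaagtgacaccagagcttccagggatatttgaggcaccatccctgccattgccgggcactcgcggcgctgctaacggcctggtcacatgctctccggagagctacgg
Of all 27305 promoters in the same RefSeq set 48.4% hold this core, and 7 of the 10 lowest genes and 3 of the 5 highest genes found in that set do, so the match is a description of 2 windows and sets no gene apart. The full palindromic estrogen response element was in none of these 15 windows and in 0.0659% of all promoters. TFF3, TFF1, MGP, HIST1H4C and SNHG25 were not among the promoters found.

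FABP7, a brain-type fatty acid binding protein, was spread widely over cells. Its sum was 276 CPM in coculture (271 to 282) and 948 CPM in monoculture (927 to 969), a log2 ratio of -1.78. The median cell had 31.3 CPM in coculture and 380 CPM in monoculture, while the 95th percentile was 1273 and 3249 CPM. After thinning to 5000 UMIs a FABP7 UMI was found in 36.5% of cocultured members (33.7 to 39.5%) and 61.0% of monocultured members (54.9 to 66.9%), against 55.6% and 82.4% without thinning. A FABP7 UMI was also found in 17.7% of cocultured resistant cells outside cluster 3 and 1.79% of monocultured resistant cells. After thinning these shares were 3.85% and 0.357%. The source of these UMIs was not tested.

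MGP, matrix Gla protein, an inhibitor of calcification that resistant cells express strongly, was higher in cocultured members, at 767 CPM (758 to 776) against 337 CPM (325 to 350), a log2 ratio of 1.18. An MGP UMI was in 1087 of 1087 cocultured members and in 177 of 267 monocultured ones (66.3%), or 82.4% and 35.2% after thinning. Even the 5th percentile of cocultured members had 131 CPM, against 0 in monoculture. Resistant (coculture) cells outside the cluster had 6053 CPM of MGP. When 10% of their RNA profile was subtracted from the cocultured members the log2 ratio of MGP became -0.84. TFF3, TFF1 and HIST1H4C stayed past 2-fold higher. For TFF3 and TFF1 resistant cells were near the level of the cocultured members, so the subtraction could change those ratios little. RNA of resistant cells captured with a sensitive cell was not measured, and its part in the MGP difference was not tested. Genes that earlier results on these same cells gave as higher in 1 lineage were also counted, and are no independent support. All 11 tested genes of the sensitive list were lower in coculture (median -0.65). Of 5 tested genes of the resistant list, MGP among them, 4 were higher (median 1.18), and the median became -0.10 after the same subtraction.

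**Figure D4:**
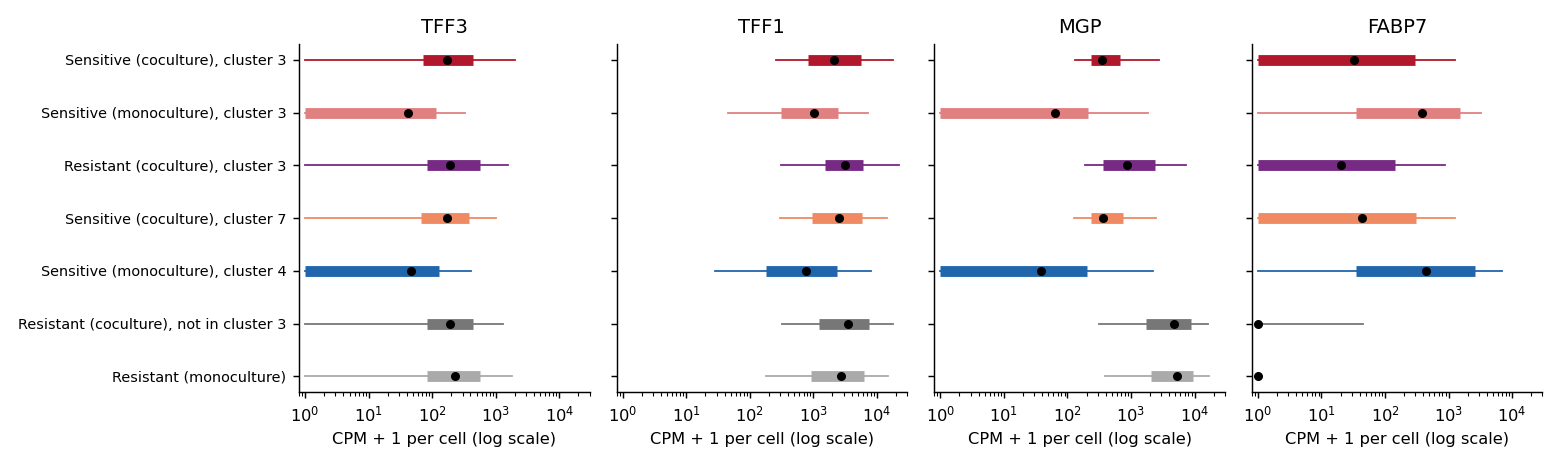
Spread over cells of TFF3, TFF1, MGP and FABP7 (CPM + 1 per cell, log scale) in 7 groups. Dots are medians, thick bars the 25th to 75th percentile and thin lines the 5th to 95th. Cocultured members of cluster 3 have a narrow lower end for MGP (5th percentile 131 CPM) and a lower median of FABP7 (31.3 CPM) than monocultured members (380 CPM).

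Other genes of the 10 highest had varied roles. ATP5ME, a small subunit of ATP synthase, was at 1116 and 463 CPM (log2 ratio 1.27), ROMO1, a small mitochondrial membrane protein, at 527 and 225 CPM (1.23), and RPS27, a ribosomal protein, at 7185 and 3360 CPM (1.10). MIF, a cytokine, was at 1208 and 583 CPM (1.05), NMT1, which attaches myristate to proteins, at 157 and 68.0 CPM (1.19), and the non-coding RNA SNHG25 at 110 and 53.1 CPM (1.04). With the ratio of resistant cells subtracted, an alternative chosen after seeing the data, these genes were no longer past 2-fold, at 0.67 for ATP5ME, 0.63 for ROMO1, 0.68 for RPS27, 0.71 for MIF, 0.37 for NMT1 and 0.24 for SNHG25. On the lower side stood LXN, latexin, a carboxypeptidase inhibitor, at 57.9 and 115 CPM (-0.98) and ATP1B1, a sodium pump subunit, at 53.2 and 104 CPM (-0.95). Of 77 nuclear respiratory chain genes 34 were higher and 43 lower (median -0.03), and of 78 ribosomal protein genes 52 were higher and 26 lower (median 0.06), with 1 gene past 2-fold in each. Of 13 mitochondrially encoded genes MT-ND6, MT-ND3, MT-ATP8 and MT-ND4L were 0.58 to 0.85 higher on the log2 scale, while MT-ND1 (-0.47) and MT-CYB (-0.45) were lower. Among the alternatives MT-ND3 fell as low as 0.19 and MT-ATP8 as low as 0.16, and MT-ND6 no lower than 0.59.

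Below 50 CPM, and so outside the naming rule but listed here after their values were seen, S100P, a calcium-binding protein, was at 43.0 and 8.56 CPM (2.20), DHRS2, a short-chain dehydrogenase, at 6.03 and 30.3 CPM (-2.16), and DUSP2, a MAP kinase phosphatase, at 22.8 and 66.2 CPM (-1.50). A few ratios rest on single cells. CGA, the glycoprotein hormone alpha chain, had 327 UMIs in monoculture, of which 320 (97.9%) came from 1 cell, so its log2 ratio of -4.74 describes that cell. The largest cell gave 25.95% of the monocultured UMIs of the chemokine CCL2, 20.6% of S100A9, 17.3% of S100A8 and 20.8% of S100P.

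The same contrast in other cells set apart 3 kinds of gene. The comparisons in sensitive cells use the same pair of libraries, and the one in resistant cells shares the coculture library with them, set over the resistant monoculture library. They are therefore given side by side and not as separate support. TFF3, TFF1, MGP, ID1 and ID3 had like ratios in sensitive cells of clusters 7 and 4, the latter with only 84 cocultured cells. TFF3 gave 1.85 and 1.93, TFF1 1.18 and 0.95, MGP 0.84 and 1.12, ID3 -1.15 and -0.75, and ID1 -1.16 and -0.90. In resistant cells, coculture over monoculture, TFF3 gave -0.41, TFF1 0.25, MGP -0.12, ID3 0.26 and ID1 0.34. ATP5ME, ROMO1, NMT1 and SNHG25 were higher in coculture in every group of cells, with 0.59 to 0.82 in resistant cells. PTTG1, PCLAF and S100A8 had another sign in cluster 4, where PTTG1 gave 0.90, PCLAF 0.43 and S100A8 1.00.

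**Figure D5:**
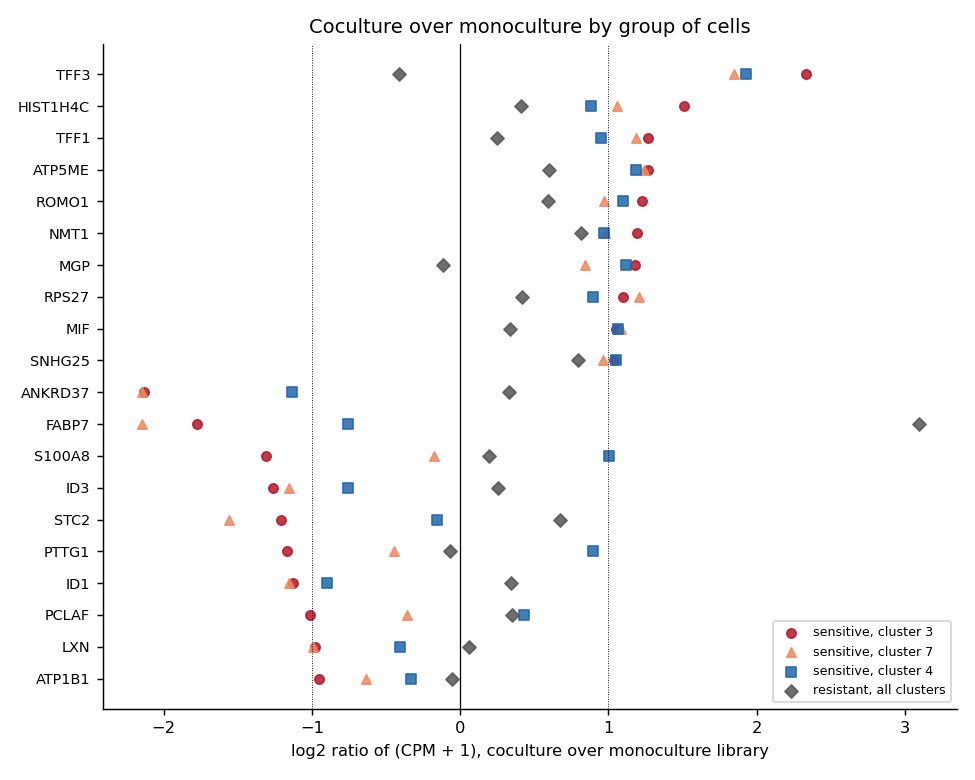
Log2 ratio of CPM + 1, coculture over monoculture library, for the 10 highest and 10 lowest genes of cluster 3 (averaging 50 CPM or more), in sensitive cells of clusters 3, 7 and 4 and in all resistant cells. Dotted lines mark 2-fold. TFF3 stands at 2.33, 1.85 and 1.93 in the sensitive clusters and -0.41 in resistant cells. FABP7 is lower in sensitive cells but 3.09 in resistant cells, where its levels were low, at 14.4 and 0.808 CPM.

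Against cluster 7, the other large group of cocultured sensitive cells, cluster 3 had lower levels of proliferation genes. Of 6747 genes 208 were past 2-fold lower in cluster 3 (3.08%) and 6 higher (0.0889%). All 33 S phase genes tested were lower, 28 of them past 2-fold, with a median of -1.61, and all 51 G2M genes, 42 of them past 2-fold, with a median of -1.92. RRM2, the small subunit of ribonucleotide reductase, was at 11.0 CPM in cluster 3 and 140 CPM in cluster 7 (log2 ratio -3.55), MKI67, which encodes the Ki-67 antigen, at 18.5 and 156 CPM (-3.01), and HIST1H4C at 164 and 1471 CPM (-3.16). TFF1, FABP7 and MGP were close, at 4693 and 4365, 276 and 273, and 767 and 750 CPM, and TFF3 was at 418 and 292 CPM (0.51). The median cell had 169 CPM of TFF3 in cluster 3 and 171 CPM in cluster 7, while the 95th percentile was 2006 and 1015 CPM. Higher in cluster 3 by summed UMIs were KRT7, a keratin of simple epithelia, at 795 and 435 CPM (0.87), the nuclear long RNA NEAT1 at 4846 and 2719 CPM (0.83) and MUCL1, a secreted mucin-like protein, at 1264 and 826 CPM (0.61). The median cell had 248.5 and 242.7 CPM of MUCL1, while the 95th percentile was 5478 and 2915 CPM. In G1 cells alone the ratio of NEAT1 was -1.13 and that of HIST1H4C 0.93, but cluster 7 held only 3 such cells.

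Monocultured members were compared with cluster 4, where most monocultured sensitive cells lay. Of 6757 genes 39 were past 2-fold higher in cluster 3 (0.577%) and 37 lower (0.548%). PTTG1 was at 341 CPM in cluster 3 and 28.6 CPM in cluster 4 (log2 ratio 3.53), PCLAF at 144 and 19.4 CPM (2.83), the metal-binding protein MT2A at 291 and 45.3 CPM (2.66) and STMN1, which destabilises microtubules, at 347 and 134 CPM (1.37). S100A1, a calcium-binding protein, was at 49.7 and 263 CPM (-2.38), STC2 at 96.7 and 204 CPM (-1.07), FABP7 at 948 and 1775 CPM (-0.91) and CLU, the secreted chaperone clusterin, at 637 and 1283 CPM (-1.01). TFF1 stood at 1949 and 1981 CPM and TFF3 at 82.1 and 100.5 CPM. The median cell had 1005 CPM of TFF1 in cluster 3, 761.5 CPM in cluster 4 and 603 CPM over all monocultured sensitive cells. The heat shock list was higher in cluster 3 than in cluster 4 (median 0.57).

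Within the coculture library, sensitive members of cluster 3 kept a profile of their own beside the 6201 resistant cells outside the cluster. Of 6672 genes 57 were past 2-fold higher in the sensitive members (0.854%) and 103 lower (1.54%). FABP7 was at 276 against 12.1 CPM (log2 ratio 4.40), AZGP1, a secreted zinc-binding glycoprotein, at 184 against 59.4 CPM (1.62), SNCG, gamma-synuclein, at 324 against 109 CPM (1.56) and TMSB4X, which binds actin monomers, at 2210 against 814 CPM (1.44). MGP was at 767 against 6053 CPM (-2.98) and NME4, a mitochondrial nucleoside diphosphate kinase, at 54.8 against 221 CPM (-1.99). NUSAP1, a spindle protein, was at 34.9 against 134 CPM (-1.91), and in G1 cells alone its log2 ratio was 0.24. TFF3 and TFF1 were near the resistant level, at 418 against 359 CPM (0.22) and 4693 against 5457 CPM (-0.22), whereas monocultured members had 82.1 and 1949 CPM.

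Against all other 17787 annotated cells, cluster 3 as a whole had 23 of 6698 genes past 2-fold higher (0.343%) and 72 lower (1.07%). Several of the highest genes were also high in the sensitive lineage outside the cluster. SCIN, scinderin, an actin-severing protein, was at 85.2 CPM in cocultured members, 103 CPM in monocultured members and 107 CPM in monocultured cells of cluster 4, against 10.4 CPM in resistant cells of coculture. RBBP8, a DNA end-resection factor, was at 86.9 CPM in cocultured members and 79.0 CPM in cocultured sensitive cells of cluster 7, but at 34.4 CPM in monocultured cells of cluster 4. Lower genes were MGP (-2.75), NME4 (-1.72) and proliferation genes such as UBE2C (-1.50) and TOP2A (-1.34). In G1 cells alone UBE2C gave 0.025 and TOP2A 0.44.

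The 91 Resistant (coculture) members had a profile close to that of the sensitive members around them. Only 3 of 6658 genes were past 2-fold higher than in sensitive members (0.0451%) and 2 past 2-fold lower (0.03%). The higher genes were S100P, NME4 and MGP, and the lower ones, named after their values were seen, were PEG10 at 24.3 against 55.7 CPM (-1.16) and CD82, a membrane tetraspanin, at 18.0 against 37.4 CPM (-1.01). Over 2305 genes that averaged 50 CPM or more the root mean square log2 difference between these 91 cells and the 1087 sensitive members was 0.145, and no other pair with the sensitive members was as close among 26 groups of at least 50 cells. The next were cocultured sensitive cells of cluster 4 (0.299), Resistant (coculture) cells of cluster 6 (0.306) and monocultured members of cluster 3 (0.307). With genes from 10 CPM up, monocultured members came second (0.312), and without S and G2M genes cocultured sensitive cells of cluster 7 came closer than monocultured members, at 0.301. The clustering placed these cells together, so a small difference describes that choice.

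Some genes that separate the lineages were at values between them in these 91 cells. FABP7, MGP, NME4, SCIN and MAPT are named for the size of this same ratio, so they had to differ from the sensitive members. FABP7 was at 150 CPM (137 to 164), against 276 CPM in sensitive members and 12.1 CPM in other resistant cells of the library. MGP was at 1830 CPM (1784 to 1876), against 767 and 6053 CPM, and NME4 at 140 CPM (128 to 153), against 54.8 and 221 CPM. SCIN was at 61.0 CPM against 85.2 and 10.4 CPM, and MAPT, which encodes the microtubule protein tau, at 47.5 against 72.3 and 16.6 CPM. S100P lay outside that range, at 143 CPM (131 to 157) against 43.0 and 64.4 CPM. Of these 91 cells 57 (62.6%) carried a single mCherry UMI, against 37.1% of other resistant cells of the library. Among cocultured sensitive members of the cluster 494 (45.4%) carried a single mVenus UMI. The 34 cells with 2 or more mCherry UMIs had 2506 CPM of MGP and 172 CPM of FABP7, and the 57 with 1 had 1368 and 135 CPM. Of the 11 genes of the sensitive lineage list 6 were higher and 5 lower in these cells than in sensitive members (median 0.10), and all 5 of the resistant list were higher (median 0.63). The part of stray mCherry RNA, or of droplets with more than 1 cell, in these values was not tested.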

How the data were processed

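Raw UMI counts per gene and barcode, deposited for each of 3 libraries (10x 3' v3), were made by the authors with Cell Ranger 3.0.2 on GRCh37. The authors filtered cells, removed doublets predicted with scrublet, clustered the rest and deposited cluster, lineage, phase, a score for S and for G2M, and the percent of mitochondrial UMIs for each kept cell. In total 8 further annotation columns were not used. Summed UMIs differed from the deposited totals per cell by at most 6. Rows with no symbol, 0.523 to 0.591% of UMIs, were dropped. The libraries held 173405094 to 519475237 UMIs.

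UMIs were summed over the cells of a group and scaled to CPM (Python 3.11.15, pandas 2.3.3, scipy 1.17.1). Log2 ratios added 1 CPM. Counts of genes past 2-fold cover genes that averaged 10 CPM or more over the compared groups, and counting intervals were exact Poisson or Clopper-Pearson at 95%. With 1 library per condition no model was fitted and no p-value computed, and TMM factors came from edgeR 4.0.16. Phases were also called with scanpy 1.11.5 after thinning to 5000 UMIs, which no compared cell fell below. No further doublet caller was run. Scripts were tested on simulated data. Genes named were the 10 highest and 10 lowest ratios at 50 CPM or more in each comparison (5 and 5 for the resistant members), the 3 largest ratios of each list, and genes the study names. Other list members and levels were picked as examples after their values were seen. Cluster 3, the lists and the alternatives were chosen with earlier results of these data known. By symbol, 12 list genes were not found. GRCh37 gene positions come from the GENCODE annotation.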

Additional observations from a re-analysis of the deposited data

Results flagged for a closer look

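In 2 genes that averaged 10 CPM or more in sensitive cells of cluster 3 the ratio of coculture to monoculture was past 2-fold one way in sensitive cells of cluster 3 and past 2-fold the opposite way in resistant cells. FABP7 was at 276 CPM in coculture and 948 CPM in monoculture in sensitive cells of cluster 3 (log2 ratio -1.78), and at 14.4 and 0.808 CPM in resistant cells (3.09). COL3A1, a fibrillar collagen gene, was at 21.7 and 44.6 CPM in sensitive cells (-1.01) and at 2.12 and 0.181 CPM in resistant cells (1.40). The filter of 10 CPM was not applied to resistant cells. There COL3A1 lay below 10 CPM in both libraries and FABP7 in monoculture, so the added 1 CPM weighs on these ratios. The source of the FABP7 UMIs in resistant cells was not tested. Each condition had 1 library, so the difference between lineages was not tested.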

How the results depend on the processing

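No paired analysis was possible because each condition had 1 library. Of 93 ratios past 2-fold of named genes, 81 kept their sign under every alternative run. Another added CPM or filter cannot change the sign of a ratio, and these genes were named for large ratios in these same data. The resistant members stayed nearest to the cocultured members of cluster 3 in each set of genes run. Counts past 2-fold depended on the setting. For cocultured over monocultured members, higher and lower counts were 11 and 13 with 10 CPM added, 10 and 8 at a mean of 50 CPM, 73 and 43 with no filter, and 53 and 52 after thinning to 5000 UMIs. With 2 or more transgene UMIs 42 were higher, and subtracting the ratio of resistant cells (chosen after seeing the data) gave 41 lower. TMM scaling made 64.8% of calls higher, against 50.0%. Against cluster 7, higher counts were 0 with 10 CPM added, 0 at 50 CPM (68 lower), 13 with no filter and 15 thinned. G1 cells alone gave 814 and 1759, with only 3 G1 cells in cluster 7. Against cluster 4 the counts were 22 and 9, 8 and 11, 103 and 88, and 60 and 91 in the same order of settings, then 57 lower with mitochondrial genes left out of the totals, and 62 and 76 with 2 or more transgene UMIs. There TMM made 44.4% and totals without mitochondrial genes 43.6% of calls higher, against 51.3%. Against resistant cells of the library they were 28 and 44 with 10 CPM added, 15 and 22 at 50 CPM, 182 and 178 with no filter, and 40 lower in G1 cells. Against all other cells they were 12 and 22, 4 and 12, and 82 and 119, and 26 lower in G1 cells. For resistant over sensitive members they were 5 higher with 0.1 CPM added, 0 lower with 10 CPM added or at 50 CPM, 33 and 57 with no filter, 110 and 110 thinned, 7 and 4 in G1 cells, and 29 and 22 with 2 or more transgene UMIs.

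The share in S or G2M was 30.1% (cocultured), 23.2% (monocultured), 31.9% (resistant) and 28.9% (all) after thinning. Without thinning it was 26.04%, 30.8% and 25.1% in cocultured, resistant and all members. With 2 or more transgene UMIs it was 20.5%, 38.2% and 22.0% in monocultured, resistant and all members. Of 215 list medians over the comparisons 95 had another sign under at least 1 alternative. Among ratios and list medians past 2-fold, signs reversed for MGP (-0.84) and the resistant lineage list (-0.10) after subtracting 10% of resistant RNA. In G1 cells they reversed against cluster 7 for HIST1H4C (0.93), NUSAP1 (0.72) and UBE2C (5.51), and among smaller ratios for NEAT1 (-1.13), ZKSCAN1 (-1.24), HIST1H2AC (-0.48), IVD (-0.36), CLIC3 (-0.17) and CITED4 (-0.03), then against resistant cells for NUSAP1 (0.24), TOP2A (0.25) and CENPF (0.0090), and against all other cells for NUSAP1 (0.54), HIST1H4C (0.29), UBE2C (0.025), TOP2A (0.44) and CENPF (0.14). With no filter the median of fibroblast markers became -0.0073 against resistant cells and -0.0024 against all other cells, and that of basal markers -0.0085. The thinned, G1 and transgene settings use fewer or shallower cells, with fewer UMIs per gene. The G1 setting also leaves out cells called S or G2M, 19.3% of cluster 3 and 44.7% of all other cells. The causes of the changes were not tested.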
